A study of Homo sapiens with 38 samples.

Results

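The nuclear and cytoplasmic RNA of an AGO1 knockout line was compared, using the 6 libraries titled Nuc-A1 and Cyto-A1 (3 of each fraction, cell passages 6, 7 and 8) out of 30 RNA-seq libraries and 38 samples in the series. The line was made by gene editing of HCT116, a human colorectal carcinoma cell line. It carries the knockout of AGO1 alone, and it is 1 line. The reference was unedited wild-type HCT116, with 3 nuclear and 3 cytoplasmic libraries from passages 27, 28 and 29. Clone, passage and genotype therefore cannot be told apart in any comparison of the lines. Nuclei were separated from the cytoplasm with a hypotonic buffer and detergent, ribosomal RNA was removed, and stranded total RNA libraries were sequenced from paired ends. The estimated reads ranged from 31252459 to 32282444 per nuclear and from 68161346 to 77898671 per cytoplasmic AGO1 knockout library, and from 20431557 to 26536692 and from 39476205 to 43281746 in wild type.

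Argonaute proteins load microRNAs and guide them to mRNAs, mostly in the cytoplasm, and AGO1 is 1 of 4 human members. A newly made RNA is spliced and exported unless it is held back, so that mature mRNAs gather on cytoplasmic ribosomes while unspliced RNAs, small nucleolar RNAs (snoRNAs) and some long noncoding RNAs (lncRNAs) remain in the nucleus. NEAT1 builds paraspeckles and MALAT1 collects at nuclear speckles, and both are used as nuclear markers. A ratio here is the normalised read count scaled to library size (CPM) of a gene in nuclear libraries over that in cytoplasmic libraries, on the log2 scale, and it compares shares of each RNA pool and not molecules per cell.

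AGO1 RNA was examined first. It stood at 58.6, 55.2 and 56.2 CPM in the nuclear AGO1 knockout libraries and at 16.6, 17.8 and 15.9 CPM in the cytoplasmic ones. The wild-type libraries held 142.3, 140.9 and 117.6 CPM in the nucleus and 192.8, 189.5 and 164.1 CPM in the cytoplasm. Every knockout library was below every wild-type library of its fraction. AGO1 fell by 1.24 on the log2 scale in nuclear RNA (adjusted p = 9.65e-06, edgeR) and by 3.44 in cytoplasmic RNA (adjusted p = 2e-09), so the residual AGO1 RNA took a larger share of the nuclear than of the cytoplasmic RNA of the knockout line. Of the AGO1 TPM, transcripts annotated as protein coding made up 91.8% ± 10.7 (SD) in the nuclear and 88.7% ± 16.5 in the cytoplasmic knockout libraries, and a transcript annotated for nonsense-mediated decay made up the rest.

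The 3 other Argonaute genes were not edited. AGO2, the main member with slicer activity, stood at 416.1, 405.1 and 416.7 CPM in nuclear and at 511.4, 501.7 and 469.3 CPM in cytoplasmic AGO1 knockout RNA. Its log2 ratio of -0.26 ± 0.09 (SE, adjusted p = 0.0151) turned positive under other scalings. AGO3 was higher in the nucleus at 0.52 ± 0.09 (adjusted p = 0.000279). AGO4 had a ratio of -0.32 (adjusted p = 0.0523) at 11.1 ± 1.35 nuclear and 13.9 ± 2.35 cytoplasmic CPM (SD). None of these 3 ratios differed from wild type past the threshold, with differences of -0.19, -0.44 and -0.18 (adjusted p = 0.681, 0.248 and 0.856).

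The fraction markers separated the AGO1 knockout libraries. NEAT1 stood at 296.9, 310.8 and 334.1 CPM in the nuclear libraries and at 37.1, 39.6 and 35.6 CPM in the cytoplasmic ones, and MALAT1 at 10730, 9488 and 10080 against 1478, 1534 and 1375 CPM. The groups did not overlap for either RNA. The log2 ratios were 3.07 ± 0.24 for NEAT1 (adjusted p = 2.43e-07) and 2.79 ± 0.18 for MALAT1 (adjusted p = 3.93e-08). GAPDH, a glycolytic enzyme, lay on the other side at 2307, 2407 and 2168 nuclear and 3919, 4030 and 3953 cytoplasmic CPM (ratio -0.79 ± 0.07). Genes of the mitochondrial genome took 0.366% to 0.422% of the nuclear reads and 7.46% to 8.27% of the cytoplasmic reads of the knockout line.

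In wild type the same markers were further apart. NEAT1 had a ratio of 3.94 and MALAT1 one of 3.87, which made the knockout lower by 0.87 (adjusted p = 0.348) and 1.09 (adjusted p = 0.103), and GAPDH had -1.16, a difference of 0.37 (adjusted p = 0.217). None of these differences passed the threshold in the fit of 12 libraries. In a fit of all 30 libraries of the series the MALAT1 difference was -1.03 (adjusted p = 0.00624) and passed it, while NEAT1 (adjusted p = 0.153) and GAPDH (adjusted p = 0.0627) did not. The MALAT1 ratio there was 3.83 in wild type and 2.80 in the AGO1 line. It was also lower in the AGO2 (2.75), AGO1/2 (2.12) and AGO1/2/3 (2.48) lines. The wild-type library of passage 29 stood apart from passages 27 and 28 in both fractions, with NEAT1 at 1033 against 521.4 and 523.5 nuclear CPM. Its MALAT1 stood at 730.9 against 1119 and 1110 cytoplasmic CPM. Of 12 epithelial markers KRT8, a keratin, stood at 344.3 to 498 TPM by group, whereas VIL1, of intestinal microvilli, reached at most 0.0773 TPM in the 12 libraries. Meanwhile 17 of 20 markers of other cell types stayed below 0.5 TPM in every library, PTPRC, DCN and HBB among them. The 3 exceptions were COL1A1, ACTA2 and HBA1, which reached at most 6.21, 6.88 and 1.66 TPM. Of these 20 markers 5 passed the filter on low counts, with 1 called nuclear (COL1A1) and 1 cytoplasmic (ACTA2) in the knockout.

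**Figure D1:**
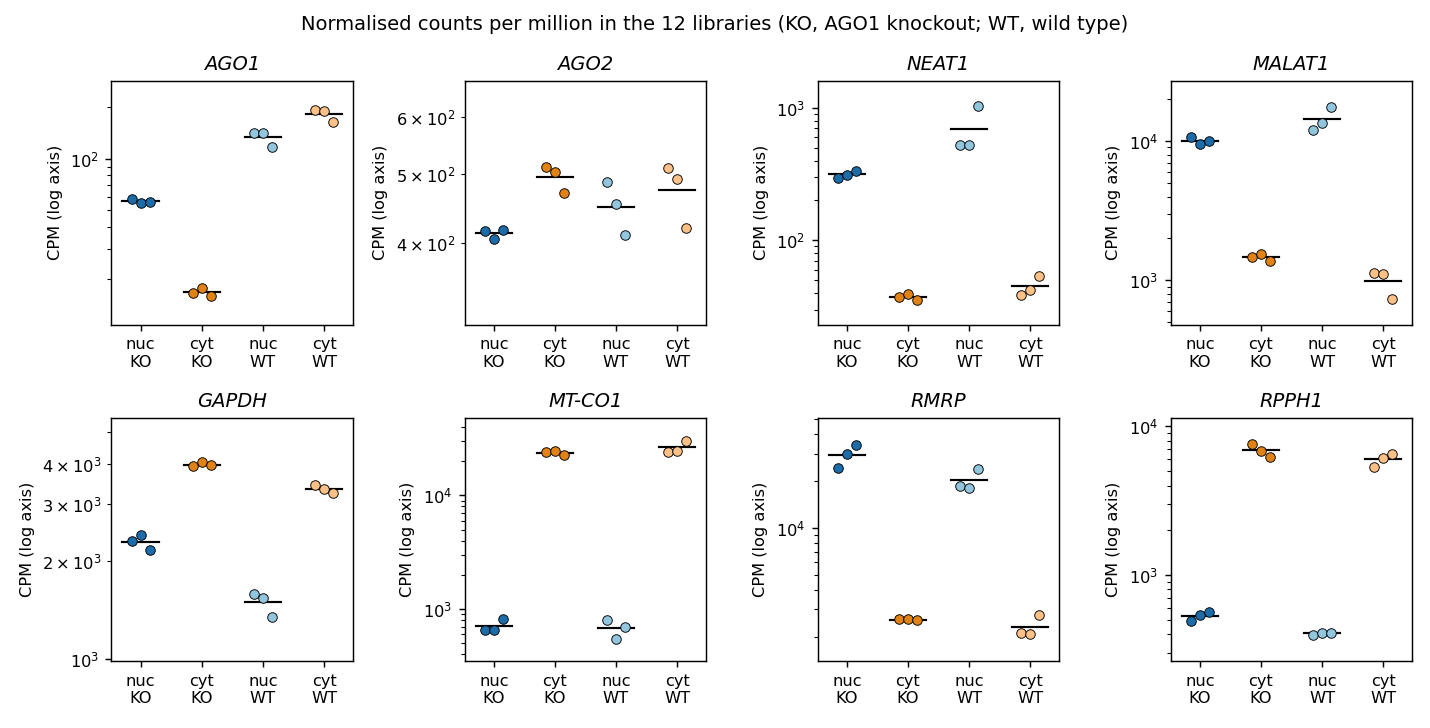
Normalised CPM on a log axis of 8 genes in nuclear (nuc) and cytoplasmic (cyt) libraries of the AGO1 knockout (KO) and wild type (WT), with a point per library and a line at the mean of 3. NEAT1, MALAT1 and RMRP are higher in the nuclear libraries and GAPDH, MT-CO1 and RPPH1 in the cytoplasmic ones, and AGO1 drops in the knockout most strongly in the cytoplasm, from 164.1 CPM or more to 17.8 CPM or less.

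Of 18537 genes tested in the AGO1 knockout line, 7111 (38.4%) were higher in nuclear and 6598 (35.6%) in cytoplasmic RNA (edgeR with trimmed-mean normalisation factors, adjusted p at most 0.05). The p-values measure the spread between passages of 1 line per genotype. The nuclear side was steeper: 1969 genes were called with at least an 8-fold nuclear excess and 51 with an 8-fold cytoplasmic excess, 16 of the latter on the mitochondrial genome. The median ratio of all genes was 0.03 and depended on the scaling, with values from 0.08 to 0.51 under the other scalings tried. With library totals alone the calls were 9882 nuclear and 3688 cytoplasmic (72.8% nuclear, against 51.9% with trimmed-mean factors), so a ratio close to 0 has no firm direction.

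Gene classes differed widely in their ratios. Of the 13394 protein-coding genes encoded in the nucleus, 6033 (45.0%) were called cytoplasmic and 3445 (25.7%) nuclear, with a median of -0.22. Of the 3067 lncRNAs, 2241 (73.1%) were called nuclear and 201 cytoplasmic, with a median of 1.89. The 122 snoRNAs that passed the filter on low counts had a median of 5.78 and 119 were called nuclear, as were all 9 small Cajal body RNAs. A snoRNA could pass through its nuclear counts alone. Processed pseudogenes were mostly nuclear but spread over both sides, with 610 nuclear (59.6%) and 267 cytoplasmic (26.1%) calls among 1023 and a median of 2.30.

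Among protein-coding genes the ratio moved with gene structure. The median ratio was -0.55 for genes of 2 to 5 exons in their canonical transcript, -0.46 for 6 to 10 exons and -0.11 for 11 to 20 exons. It was 0.33 for 21 or more, where 938 of 1865 were called nuclear and 299 cytoplasmic. The 344 genes of 1 exon did not follow this order, with a median of -0.16 and 110 nuclear and 142 cytoplasmic calls. By spliced length, the median was -0.71 for transcripts of 222 to 2031 bases and 0.09 for those of 5197 bases or more. Wild type ran over a slightly wider span on the same genes, from -0.64 for 2 to 5 exons to 0.39 for 21 or more. Its genes of 1 exon had a median of -0.34.

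**Figure D2:**
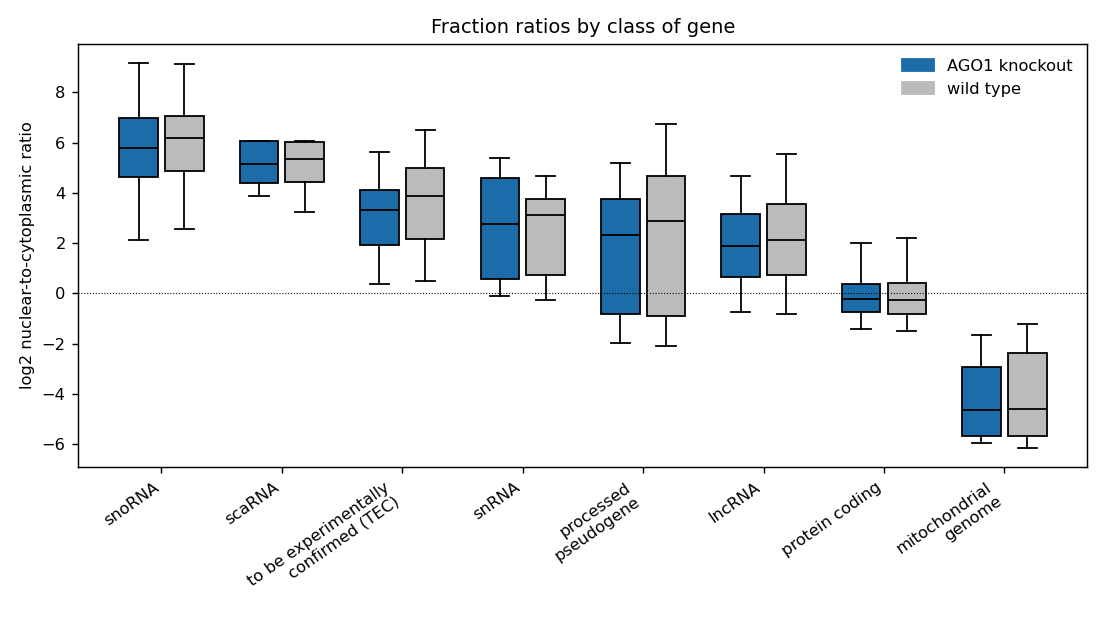
Log2 nuclear-to-cytoplasmic ratios by class of gene in the AGO1 knockout (blue) and wild type (grey); boxes show quartiles and median, and whiskers the 5th and 95th percentiles over genes. Classes run from snoRNAs (knockout median 5.78) to the mitochondrial genome (-4.66), with protein-coding genes near 0 (-0.22).

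The 10 genes with the largest nuclear ratio, by the naming rule, were the snoRNAs SNORA31B, SNORA70, SNORA40, SNORA10, SNORD10, SNORA67, SNORD22 and SNORA64, the lncRNA ENSG00000291262 and MIR3648-1. SNORA31B stood at 16.2, 21.8 and 21.1 nuclear CPM and had no read in any of the 3 cytoplasmic libraries of the knockout, at least 1166-fold higher in the nucleus against a floor of 3 counts over the group. The bound was 702.1-fold for SNORA70, 535.6-fold for SNORA40, 398.8-fold for SNORD10 and 168.2-fold for SNORD22, all with 0 cytoplasmic reads. In wild type SNORA31B had 6 cytoplasmic reads and SNORA70 had 0, and the difference between the lines was not past the threshold for either (adjusted p = 0.413 and 1). ENSG00000291262 had 1 cytoplasmic read, a ratio of 1556 with a 95% counting interval of 279.3 to 61460. Intervals and floors cover counting error only.

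Printed here are the H/ACA snoRNAs with the 2 largest nuclear ratios, which guide pseudouridylation, and the C/D snoRNAs with the 2 largest, which guide ribose methylation, since they mark the nuclear end of the profile (GENCODE release 44 transcripts, GRCh38). Capitals mark ACA placed 3 bases before the 3′ end in the H/ACA RNAs and CTGA, the D box, in the last 15 bases of the C/D RNAs; neither C/D RNA shown held TGATGA in its first 20 bases.
SNORA31B: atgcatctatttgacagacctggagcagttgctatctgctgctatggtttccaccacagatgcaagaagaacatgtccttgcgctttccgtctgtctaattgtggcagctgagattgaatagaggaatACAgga
SNORA70: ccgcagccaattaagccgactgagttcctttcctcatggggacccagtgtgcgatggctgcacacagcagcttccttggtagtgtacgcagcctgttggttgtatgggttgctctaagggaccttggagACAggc
SNORD10: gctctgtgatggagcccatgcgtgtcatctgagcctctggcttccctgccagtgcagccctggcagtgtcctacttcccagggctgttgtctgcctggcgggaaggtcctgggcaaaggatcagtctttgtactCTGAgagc
SNORD22: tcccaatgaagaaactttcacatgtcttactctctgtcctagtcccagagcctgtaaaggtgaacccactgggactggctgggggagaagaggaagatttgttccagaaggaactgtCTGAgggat

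SNORA31B lies at chr13:45336314-45336447 on the minus strand, SNORA70 at chrX:154400281-154400415 on the plus strand in intron 5 of RPL10, SNORD10 at chr17:7576811-7576952 on the plus strand in intron 5 of ENSG00000264772, and SNORD22 at chr11:62852910-62853035 on the minus strand in intron 9 of SNHG1. On the given strand, ACA at that place was found in 142 of 213 annotated SNORA genes (66.7%) and in 5 of 313 SNORD genes (1.60%). TGATGA in the first 20 bases with CTGA in the last 15 was found in 194 of 313 SNORD genes (62.0%) and in 0 of 213 SNORA genes. Reads of a snoRNA inside an intron cannot be told apart from reads of its unspliced host.

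Among all snoRNAs named SNORA, 76 of the 213 annotated genes passed the filter and all 76 were called nuclear (median ratio 5.52). Of the 313 SNORD genes 41 passed, and 38 were called nuclear (median 6.40). A gene could pass through its nuclear counts alone, so these shares were partly set by the filter. SNORA73A, at 877.5, 1088 and 1300 nuclear against 7.05, 7.51 and 5.29 cytoplasmic CPM, was the most abundant, with a ratio of 7.36 ± 0.27 (adjusted p = 8.81e-10). The same held for SNORA73B (6.79), SNORA63 (5.50), SNORD33 (8.51), SNORD17 (7.39) and SNORD13 (6.32). The median difference from wild type was -0.06 for SNORA and -0.23 for SNORD genes, and no snoRNA passed the threshold for a difference.

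The structural RNAs of splicing and telomere machinery followed. Of 22 listed nuclear small RNAs 20 were tested, with 18 called nuclear and 2 cytoplasmic (median 3.98). RMRP, the RNA of RNase MRP, was the most abundant and stood at 24290, 30030 and 34180 nuclear against 2580, 2587 and 2549 cytoplasmic CPM, a ratio of 3.52 ± 0.16. The U1 RNA RNU1-1 had a ratio of 4.65 and the telomerase RNA TERC one of 2.46. The 2 exceptions were RPPH1, the RNA of RNase P, at 491.4, 542.6 and 566.7 nuclear against 7593, 6840 and 6253 cytoplasmic CPM (ratio -3.69 ± 0.11), and RN7SK, which restrains the elongation factor P-TEFb, at 5468, 6681 and 7466 against 18910, 18980 and 17850 CPM (-1.51 ± 0.11). Wild type had -3.89 and -1.05 for these RNAs, and the differences did not pass the threshold (adjusted p = 0.71 and 0.287).

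Long noncoding RNAs known as nuclear were mostly nuclear. Of 14 listed 10 were tested and 9 were called nuclear, from PVT1 at 0.74 and TUG1 at 0.82 to LINC-PINT at 4.42 and KCNQ1OT1, an imprinted antisense RNA, at 4.60, while PAXIP1-AS2 had -0.18 and was not called. The list of cytoplasmic lncRNAs was split, with 8 called cytoplasmic and 7 nuclear of 16 (background above). SNHG16 (-1.43), SNHG6 (-1.09) and DANCR (-0.94) were cytoplasmic and SNHG29 had -0.35, whereas SNHG12 (2.97), GAS5 (2.52) and SNHG1 (2.25), which host snoRNAs in their introns, were nuclear. GAS5 stood at 420.4, 418.3 and 437.5 nuclear and 64.6, 76.4 and 81.2 cytoplasmic CPM, with no overlap. MicroRNA host transcripts were called nuclear in 15 of 16 tested cases (median 2.51), among them MIR100HG (1.93), MIR222HG (4.73), MIR4435-2HG (1.63) and MIR17HG (6.15), while MIR210HG (0.89) was not called.

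At the cytoplasmic end the 10 named genes were 6 mitochondrial mRNAs (MT-CO3, MT-ND4, MT-ATP6, MT-ND3, MT-CO2 and MT-CYB), their nuclear copies MTCO3P12, MTATP6P1 and MTCO1P12, and the lncRNA ENSG00000235288. MT-CO3, a subunit of the respiratory chain, stood at 137.1, 147.8 and 204 nuclear and 16760, 16810 and 15040 cytoplasmic CPM, a ratio of -6.63 ± 0.18 (adjusted p = 1.79e-10). ENSG00000235288 had 1 read in all nuclear libraries of the knockout and 1708 in the cytoplasmic ones. The mitochondrial pseudogenes share sequence with the mitochondrial genome, so their reads are uncertain. Of the 15 mitochondrial genes listed 14 were called cytoplasmic (median -5.33), MT-ATP8 at -4.98 and MT-CO1 at -5.07 among them, and MT-ND6, the mRNA encoded on the other strand, had 0.31 and was not called.

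RN7SL1 and RN7SL2, the RNA of the signal recognition particle that brings ribosomes to the endoplasmic reticulum, had ratios of -1.67 and -1.96 and RN7SL3, a near-identical copy with uncertain counts, had -1.64. RN7SL1 stood at 14700, 16730 and 16050 nuclear against 50290, 52320 and 48930 cytoplasmic CPM. All 5 tested of the 10 listed cytoplasmic small RNAs were called cytoplasmic.

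Messenger RNAs of the translation machinery were the clearest cytoplasmic set encoded in the nucleus. Of 84 cytosolic ribosomal protein genes tested 80 were called cytoplasmic and 4 nuclear, with a median of -1.42, and no scaling tried turned the median positive (highest -0.98). RPS2 stood at 845, 912.5 and 924 nuclear and 3357, 3485 and 3416 cytoplasmic CPM (ratio -1.94 ± 0.10), RPL8 had -1.31 and RPL37A -1.22. Those on the nuclear side included RPS27 (1.94), RPS7 (1.38) and RPL3L (1.12), named after their values were seen. Of 54 replication-dependent histone genes, which encode packaging proteins of S phase, 46 were called cytoplasmic and 3 nuclear (median -1.04), with H4C14 at -1.16, H4C11 at -1.01 and H1-2 at -0.74.

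Of all protein-coding genes encoded in the nucleus, 45.0% were called cytoplasmic and 25.7% nuclear. Messages of the endoplasmic reticulum machinery also leaned to the cytoplasmic side. Of 30 genes for its chaperones and translocon 25 were called cytoplasmic and 1 nuclear (median -0.74), from KDELR2, a retrieval receptor, at -1.88 to SPCS1 at 0.91. CALR, a calcium-binding chaperone, had -0.80, P4HB, a disulfide isomerase, had -0.77 and HSP90B1 had -0.12, which was not called. Of 17 glycolytic genes 11 were cytoplasmic and 1, ENO2, nuclear (median -0.47). ENO1 had -0.17 and PKM -0.11, and the median of this list turned positive under 2 of 7 other scalings. Among 29 genes for secreted and surface proteins 13 were cytoplasmic, near the 45.0% of all protein-coding genes, and 1 nuclear (median -0.30, positive under 3 of 7 scalings), with EPCAM at -0.99, ITGB1 at -0.55 and CD44 at -0.03. Short-lived immediate early mRNAs had few calls, 7 cytoplasmic and 1 nuclear of 30, and 22 were not called. Both shares were below those of all protein-coding genes (median -0.18, positive under 4 of 7 scalings). ZFP36L1, an mRNA decay factor, had -0.41, and IER3 (-0.32) and MYC (-0.16) were not called.

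Other sets lay on the nuclear side. Of all protein-coding genes, 25.7% were called nuclear and 45.0% cytoplasmic. Of 67 KRAB zinc finger factors tested, from 97 listed, 44 were called nuclear and 5 cytoplasmic (median 0.45), with ZNF721 at 0.72, ZNF195 at 0.40 and ZNF544 at 0.29. Splicing-speckle and detained-intron genes, whose transcripts often keep an intron in the nucleus, were nuclear in 27 and cytoplasmic in 3 of 36 cases (median 0.86), with CCNL1 at 2.94, DDX5 at 0.86, HNRNPH1 at 0.52 and SRSF3 at -0.24, which was not called. The 32 mRNA export factors were split. Their 12 nuclear calls were a larger share than the 25.7% of protein-coding genes, and their 14 cytoplasmic ones were near the 45.0%. Their median was 0.03, from NXT2, a partner of the export receptor, at -1.92 to TPR, of the nuclear basket, at 3.11. The helicase DDX39B had 1.03, the export receptor XPO1 0.42 and the adaptor ALYREF -0.91.

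Of the 24 microRNA pathway genes tested 9 were nuclear, beside 25.7% of all protein-coding genes, and 6 cytoplasmic, beside 45.0%, with a median of 0.23. The nuclear ones included DROSHA, the first enzyme of processing, at 0.64, DGCR8, its partner, at 0.46 and ZSWIM8, of target-directed decay, at 0.82. FAM120A (-0.87) and TARBP2 (-0.33), the partner of Dicer, were cytoplasmic, and DICER1 (0.26), HSP90AA1 (-0.38) and HSPA8 (0.12) were not called. AGO1 itself had the highest ratio of this list, 1.76 ± 0.09, against -0.45 in wild type. Epithelial markers were called cytoplasmic in 6 of 11 tested genes, beside 45.0% of all protein-coding genes. KRT18 at -0.49 was among the 6, while KRT8 (-0.04) and KRT19 (-0.33) were not called.

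Set beside wild type, with which it shares no library, the localization profile of the knockout was nearly the same in order and slightly narrower. Over 13513 genes with a mean of at least 50 counts, the 2 ratios had a Pearson correlation of 0.969 and a Spearman correlation of 0.976 across genes, which are not independent replicates. They had the same sign in 94.0% of these genes and lay within 1 log2 unit in 98.3%. The SD of the ratio over genes was 1.29 in the knockout and 1.41 in wild type, and the slope was 0.89 for knockout on wild type and 1.05 the other way round. For lncRNAs the SDs were 1.74 and 1.94 (1072 genes). Only 4 of the 13513 genes were called on opposite sides in the 2 lines.

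A direct test of the difference called few genes in the main fit, which did not pair libraries by passage number. The ratio was higher in the knockout for 11 genes (0.0593%) and lower for 20 (0.108%), while 554 and 1290 genes had an unadjusted p under 0.05 in these directions. That balance turned around without the nuclear wild-type library of passage 27 (1194 higher and 902 lower) or of passage 28 (1028 and 782) and with all 30 libraries (1640 and 1193). DESeq2 called 85 and 251, and 29 of its calls were among the 31. A fit with the passage number as a block called 204 higher and 430 lower, all 31 among them. The labels do not say whether equal numbers mark a shared culture. Leaving out 1 library left 3 to 12 higher and 0 to 21 lower calls (edgeR), with 0 lower calls in 8 of 12 such fits, although 782 or more genes had an unadjusted p under 0.05 there. The 8 libraries were the nuclear knockout ones of passages 6, 7 and 8, the cytoplasmic knockout ones of passages 6 and 7, the nuclear wild-type ones of passages 27 and 28 and the cytoplasmic wild-type one of passage 27. Without the cytoplasmic knockout library of passage 8 there were 8 higher and 9 lower calls, and without the cytoplasmic wild-type library of passage 28 there were 7 and 8. With the nuclear wild-type library of passage 29 left out, 11 were higher and 18 lower, and with its cytoplasmic partner left out 12 and 21.

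**Figure D3:**
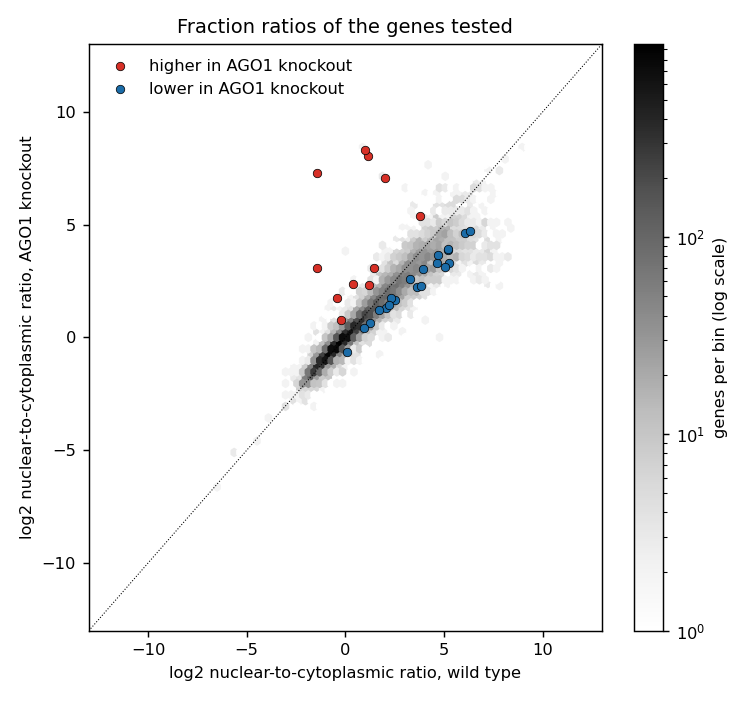
Log2 nuclear-to-cytoplasmic ratio of each gene tested in wild type (x axis) and the AGO1 knockout (y axis), shaded by the number of genes per bin on a log scale, with a dotted line at equal ratios. Red points mark the 11 genes with a higher and blue points the 20 genes with a lower ratio in the knockout, and most genes follow the line.

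The named genes with a higher ratio were AGO1, FKBP10, RNVU1-31, MAP4K5 and MARCKS, and the other 6 called had means under 5 TPM. The AGO1 difference was 2.20 (adjusted p = 1.12e-05). FKBP10, a prolyl isomerase that acts on collagens in the endoplasmic reticulum, stood at 25, 22.8 and 23.3 nuclear and 5.07, 4.57 and 4.04 cytoplasmic CPM in the knockout. In wild type it stood at 34, 33 and 32.4 nuclear and 26, 24.8 and 24.9 cytoplasmic CPM, so the lines were furthest apart in the cytoplasm. Its ratio was 2.38 against 0.39, a difference of 1.98 (adjusted p = 1.12e-05), with a fall of 2.47 in the cytoplasm and 0.48 in the nucleus. AGO1 and FKBP10 kept their calls in all 12 fits without 1 library and under all 11 other settings tried.

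MAP4K5, a stress-pathway kinase, stood at 52.5, 54.6 and 54.8 nuclear and 10.7, 11.6 and 10.1 cytoplasmic CPM in the knockout, against 62.6, 68.1 and 68 nuclear and 32.5, 27.7 and 25.2 cytoplasmic CPM in wild type (difference 1.10, adjusted p = 0.01). The groups of each fraction did not overlap, and the cytoplasmic gap was the wider. Its call was lost in 1 of 12 fits without 1 library (adjusted p = 0.0505) and under 3 of 11 settings. MARCKS, a membrane and actin binding substrate of protein kinase C, had 0.76 against -0.22 (difference 0.99, adjusted p = 0.0332), and its call held in 3 of 12 such fits. RNVU1-31, a variant U1 RNA with near-identical copies and so uncertain counts, had 5.37 against 3.78 (difference 1.59, adjusted p = 0.041), and its call held in 2 of 12.

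Among the 20 lower ratios, 19 were above 0 in both lines, so they were less nuclear in the knockout and not cytoplasmic. The 10 named were ENSG00000291047 (-1.88), ENSG00000257954 (-1.39), ENSG00000290548 (-1.03), FTX (-0.89), RANBP17 (-0.76), CHPT1 (-0.74), TSGA10 (-0.74), WDR27 (-0.70), PLEKHA5 (-0.59) and INVS (-0.54), with adjusted p-values from 0.0332 to 0.0495. FTX, a lncRNA of the X inactivation centre, stood at 97.8, 94.7 and 92.3 nuclear and 11.5, 11.7 and 11.3 cytoplasmic CPM in the knockout, against 166.4, 192.1 and 166.3 and 12.8, 12.3 and 9.11 CPM in wild type. For FTX the nuclear groups did not overlap and the cytoplasmic ones did. CHPT1, which makes phosphatidylcholine, was the exception with a cytoplasmic ratio, at 17.8, 16.9 and 17.5 nuclear and 28.6, 29.1 and 23.9 cytoplasmic CPM in the knockout against 19.3, 20.2 and 21.2 and 20.1, 18.3 and 18.4 CPM in wild type. The call of each of these 10 genes was lost in 10 or more of the 12 fits without 1 library.

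**Figure D4:**
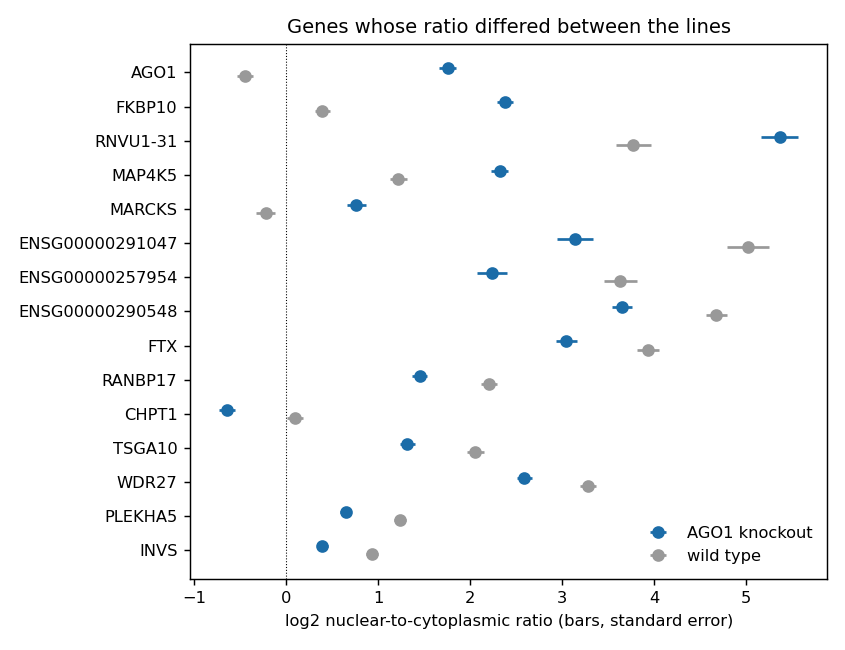
Fitted log2 nuclear-to-cytoplasmic ratio with its standard error for the 15 named genes whose ratio differed between AGO1 knockout (blue) and wild type (grey). The 5 genes at the top were higher in the knockout, AGO1 by 2.20, and the 10 below were lower, from ENSG00000291047 by 1.88 to INVS by 0.54.

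The 3 other knockout lines were set beside these values in a fit of all 30 libraries, which share the wild-type controls. The AGO1 difference from wild type was 2.26 in the AGO1 line, -0.01 in the AGO2 line, 1.21 in the AGO1/2 line and 1.499 in the AGO1/2/3 line. FKBP10 had 2.04 in the AGO1 line and -0.12, -0.05 and -0.05 in the others (adjusted p = 0.692, 0.827 and 0.855). MAP4K5 had 1.16 in the AGO1 line and the opposite sign in the AGO2 (-0.84), AGO1/2 (-1.11) and AGO1/2/3 (-1.04) lines. FTX was lower in all 4 lines, by -0.84, -0.83, -1.66 and -1.35. The SD of the ratios over genes was 1.295 in the AGO1 line, 1.24 in AGO2, 1.11 in AGO1/2, 1.16 in AGO1/2/3 and 1.41 in wild type.

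Intron retention was read from annotation: for each protein-coding gene, the TPM of transcripts annotated as intron-retaining was set against the TPM of its coding transcripts. Reads over introns were not counted, so RNA not yet spliced was not told apart from retained introns. Over the 6711 genes tested, intron-retaining transcripts made up 20.6%, 20% and 20.7% of the TPM in the nuclear AGO1 knockout libraries and 6.48%, 6.38% and 6.43% in the cytoplasmic ones. The groups were far apart, and the exact two-sided permutation p of 0.1 is the smallest that 3 against 3 libraries can give. By gene, the retaining share was higher in nuclear RNA for 5691 genes (84.8%) and lower for 96 (1.43%), with a median log2 difference of 2.62 (limma on the log2 ratio with 0.1 TPM added to each side).

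Nuclear wild-type libraries held a larger intron-retaining share, 23.9%, 24.6% and 23.9%, than the nuclear knockout libraries, a gap of -3.71 percentage points for the knockout (exact permutation p = 0.1, the smallest possible). The groups did not overlap. The cytoplasmic shares overlapped, at 6.501%, 6.507% and 6.34% in wild type (difference -0.02 percentage points, exact permutation p = 0.8). The means of the nuclear share in the other lines were 18.8% for AGO2, 13.0% for AGO1/2 and 15.0% for AGO1/2/3, with 6.27% to 6.36% in their cytoplasm.

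The genes with the largest nuclear excess of intron-retaining transcripts were CAV1, ZNG1F, COX20, SAT1 and SPCS2. CAV1, the coat protein of caveolae, had 18.2%, 17.9% and 17.2% in the nucleus and at most 0.0557% in the cytoplasm (log2 difference 7.42 ± 0.20, adjusted p = 2.97e-09). SAT1, which breaks down polyamines, had 67.5%, 69.8% and 71.4% in the nucleus and a mean of 1.81% ± 0.14 in the cytoplasm. ZNG1F had 98.5% against 21.7%, COX20 44.6% against 0.27%, and SPCS2 18.7% against transcripts listed at 0. On the lower side TMED2 had 3.05% against 17.5%, ATP11B 1.42% against 16.3% and GULP1 0 against 7.10%, with nuclear SDs above the mean for the first 2 and a call lost in 8 of 12 fits for GULP1. PLEC had its intron-retaining transcripts listed at 0 in the 6 knockout libraries, so its value came from the 0.1 TPM added.

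Of the 33 detained-intron and splicing genes with values, 32 had a higher retaining share in the nucleus and 0 a lower one (background 84.8%), and ANKRD36C was not called. CCNL1, a cyclin that binds splicing kinases, had 96.3%, 96.4% and 96.3% in the nucleus and 32.6% ± 15.2 in the cytoplasm. CLK1, a kinase of splicing factors, had 71.4%, 72.1% and 76.6% in the nucleus and 6.63% ± 1.53 in the cytoplasm. TRA2B had 87.2% against 13.8%, HNRNPH1 69.3% against 6.24%, DDX5 47.5% against 7.24%, and SRSF3 57.5% against 42.5%. The median log2 difference of the list was 3.53 in the knockout and 3.89 in wild type, and none of its genes passed the threshold for a difference between the lines.

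As examples of introns that the annotation lists as retained, the splice sites of 4 introns are given. They come from the listed genes with the largest differences where an intron-retaining transcript holds a whole intron of the canonical transcript. Read coverage of these introns was not measured. From hg38, 3 exon and 10 intron bases are shown at the 5′ site and 20 intron and 3 exon bases at the 3′ site, with GT and AG in capitals.
CCNL1 intron 4, 5′ site: aagGTgagttgta
CCNL1 intron 4, 3′ site: ttttttcccttgtccttcAGatc
TRA2B intron 4, 5′ site: gaaGTaagtaaaa
TRA2B intron 4, 3′ site: aatttatttaccttttgaAGgct
TRA2A intron 7, 5′ site: caaGTatgtgaac
TRA2A intron 7, 3′ site: ttttgctttttctcttttAGgac
HNRNPH1 intron 3, 5′ site: aagGTttgattta
HNRNPH1 intron 3, 3′ site: attctaagcacctctttcAGtat

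All 4 introns lie on the minus strand, at chr3:157152242-157153035 (CCNL1, 794 bases), chr3:185922127-185923795 (TRA2B, 1669 bases), chr7:23505570-23505745 (TRA2A, 176 bases) and chr5:179621036-179621241 (HNRNPH1, 206 bases). GT at the start with AG at the end was found in 99.1% of the 144888 canonical introns of the protein-coding genes tested, whose median length was 1504 bases, so the 4 introns carry the usual ends. The transcript used for each intron had 15.6, 12.7, 3.19 and 22.03 TPM in nuclear knockout RNA. All intron-retaining transcripts of these genes had 91.2, 108.9, 33.0 and 271.8 TPM, so each transcript used was a minor part. Whether other transcripts keep the same introns was not counted.

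**Figure D5:**
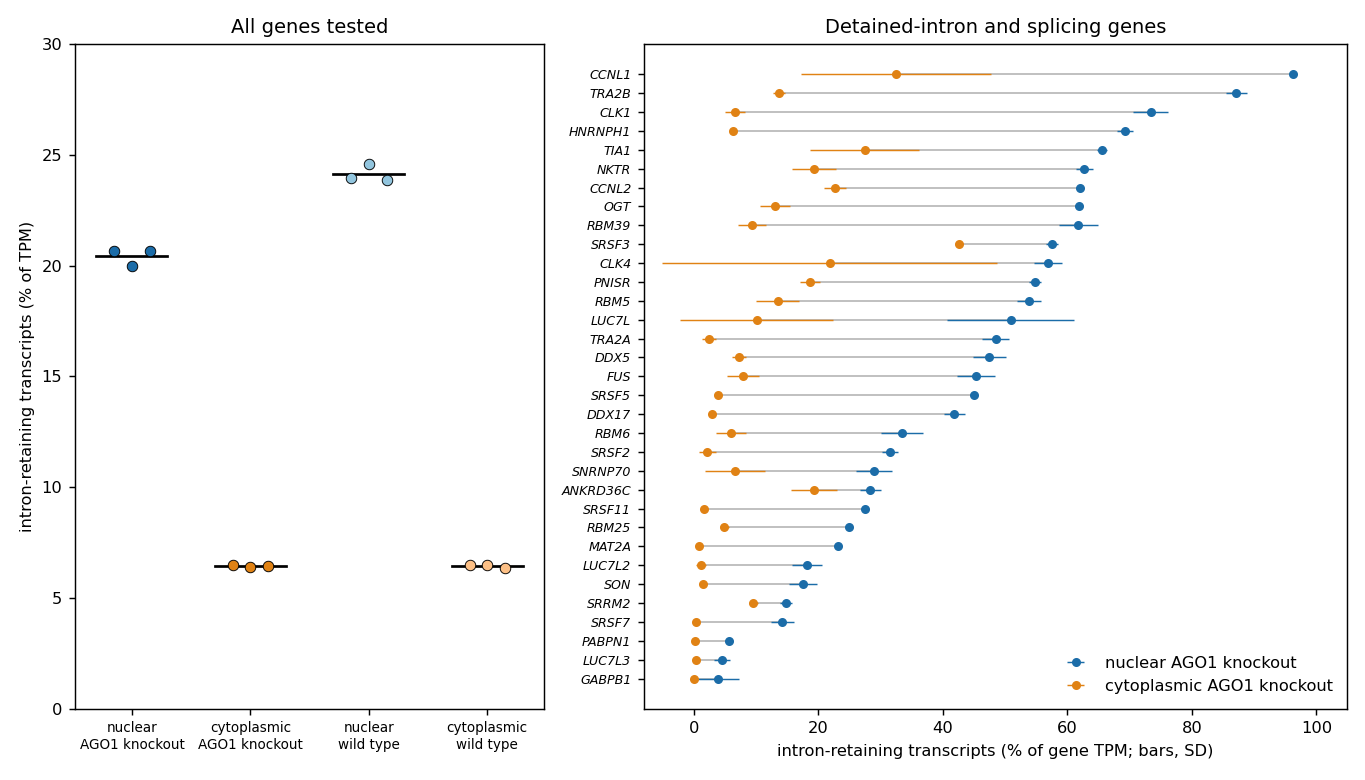
Left, intron-retaining transcripts as a percent of TPM over the genes tested, with a point per library and a line at the mean. Right, the same percent by gene for 33 detained-intron and splicing genes in nuclear (blue) and cytoplasmic (orange) AGO1 knockout RNA, as mean with SD of 3 libraries, where bars reaching below 0 reflect the SD alone; CCNL1 reaches 96.3% in the nucleus and GABPB1 3.91%.

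The nuclear-to-cytoplasmic change in retaining share differed between the lines for 40 of 6711 genes (0.596%), 18 higher and 22 lower in the knockout. Meanwhile 114 and 863 genes had an unadjusted p under 0.05 and the median difference was -0.31. A fit with the passage number as a block called 6 genes. The higher genes TMEM135, DAXX, EMP1 and DCAF4 were set apart by the cytoplasm. TMEM135 had 0.65% ± 0.43 there against 26.5% ± 0.82 in wild type, and DAXX, a histone chaperone, 0.34% ± 0.48 against 20.2% ± 5.56. The named lower genes were GNPNAT1, TRNT1, TMEM39A, COX15 and PSMD14. The calls of TMEM39A, COX15 and PSMD14 held in 3, 2 and 3 of 12 fits without 1 library, and those of the other genes named here held in all 12. TRNT1, which adds CCA to tRNAs, had 8.52% ± 1.62 in nuclear and 13.0% ± 4.84 in cytoplasmic knockout RNA, against 13.6% ± 2.61 and transcripts listed at 0 in wild type. Such shares rest on how reads were divided between overlapping transcripts.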

How the data were processed

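Estimated read counts and TPM per transcript were deposited for each of 30 RNA-seq libraries, and the authors made them with Salmon after ribosomal RNA depletion, on hg38. The submitters' processing notes name STAR 2.5.3a and Salmon 0.11.0. The 8 eCLIP samples were not analysed here. Of 200401 transcripts 196040 matched GENCODE release 44, and the 4361 unmatched ones, with 2.23% to 4.01% of the reads, were left out. The deposited estimated counts were summed to 58425 genes and rounded, and genes with enough reads (filterByExpr, minimum count 10) were fitted by the edgeR quasi-likelihood test (edgeR 4.0.16, R 4.3.3) with trimmed-mean (TMM) factors on 12 libraries in 4 groups, with Benjamini-Hochberg adjustment at 0.05. Passage numbers named the replicates and did not enter the fit.

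The deposited TPM of intron-retaining and coding transcripts were compared as log2((retaining TPM + 0.1) / (coding TPM + 0.1)) with limma 3.58.1 for genes with a mean of at least 1 TPM. Such a fold change understates the change of low transcripts. Library shares were compared by exact two-sided permutation tests. DESeq2 1.42.0, other scalings, filters, TPM values, a replicate block and leaving out each library were tried as alternatives. The scripts were tested on simulated data.

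The naming rule took the 10 largest ratios in each direction among called genes of at least 5 TPM whose libraries did not overlap. It also took up to 10 ratio differences and 5 intron-retention changes in each direction among called genes of at least 5 TPM, overlapping or not. From each of 20 lists it took the 3 most abundant genes, called or not. Other genes were named as the ends of a list or as exceptions after their values were seen. Some genes that the rule took are not reported here. The lists and the comparisons were chosen with earlier results of these data known.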

Additional observations from a re-analysis of the deposited data

Results flagged for a closer look

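The nuclear-to-cytoplasmic ratio of 15 named genes differed between the AGO1 knockout and wild type by a test of the difference itself (edgeR, adjusted p at most 0.05). The log2 difference was 2.2 for AGO1, 1.98 for FKBP10, 1.59 for RNVU1-31, 1.1 for MAP4K5 and 0.988 for MARCKS. It was -1.88 for ENSG00000291047, -1.39 for ENSG00000257954, -1.03 for ENSG00000290548, -0.894 for FTX and -0.757 for RANBP17. It was -0.741 for CHPT1, -0.74 for TSGA10, -0.697 for WDR27, -0.588 for PLEKHA5 and -0.542 for INVS. The calls of AGO1 and FKBP10 held in all 12 fits without 1 library and that of MAP4K5 in 11. Those of MARCKS and RNVU1-31 held in 3 and 2 of 12, and those of the lower genes in at most 2.

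The fraction difference in intron-retaining share also differed between the lines for 9 named genes (limma). The log2 difference was 5.16 for TMEM135, 4.83 for DAXX, 4.12 for EMP1 and 3.75 for DCAF4. It was -4.65 for GNPNAT1, -4.28 for TRNT1, -2.27 for TMEM39A, -2.26 for COX15 and -2.23 for PSMD14. The calls of TMEM39A, COX15 and PSMD14 held in 3, 2 and 3 of 12 fits without 1 library. Under the 3 other settings those of TMEM39A, COX15 and DCAF4 held in 1, those of DAXX, GNPNAT1 and PSMD14 in 2 and those of TMEM135, EMP1 and TRNT1 in all 3. Genotype, clone and passage cannot be told apart in any of these.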

How the results depend on the processing

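The count of genes higher in cytoplasmic RNA, 6598, moved to 3688 with library totals alone, 3078 with log2(TPM + 1) and 3102 with log2(TPM + 0.1), and that of nuclear genes, 7111, stayed within 1.5 times. Nuclear calls made up 72.8%, 75.5% and 75.9% of calls there and 65.3% with factors from protein-coding genes, against 51.9%. Without 1 library the counts were 6820 to 7665 nuclear and 6211 to 6927 cytoplasmic. For the ratio difference, 11 higher became 85 with DESeq2 and 37 with all 30 libraries, and 20 lower became 251 with DESeq2, 8 with RLE factors, 55 with library totals, 39 with a mean of at least 50 counts, 510 with log2(TPM + 1), 99 with log2(TPM + 0.1) and 96 with all 30 libraries. Without 1 library they were 3 to 12 and 0 to 21. For introns, a pseudocount of 1 TPM gave 277 genes with a lower nuclear share in place of 96 and 92 differences between lines in place of 40. Without 1 library these were 76 to 102 and 17 to 61, and the higher share was called for 5538 to 5713 genes. The cause was not tested.

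Small log2 ratios changed sign. With library totals they were 0.0939 for SNHG29, 0.276 for ENO1, 0.332 for PKM, 0.32 for HSP90B1, 0.41 for CD44, 0.204 for SRSF3, 0.116 for IER3, 0.0284 for ZFP36L1, 0.28 for MYC, 0.0633 for HSP90AA1, 0.404 for KRT8, 0.109 for KRT19, 0.184 for AGO2 and 0.118 for AGO4. With protein-coding factors they were 0.119 for ENO1, 0.174 for PKM, 0.161 for HSP90B1, 0.252 for CD44, 0.0455 for SRSF3, 0.122 for MYC, 0.245 for KRT8 and 0.0249 for AGO2. With a mean of at least 50 counts they were 0.0216 for ENO1, 0.0769 for PKM, 0.0631 for HSP90B1, 0.155 for CD44, 0.0255 for MYC and 0.147 for KRT8. With log2(TPM + 1) and log2(TPM + 0.1) they were 0.305 and 0.306 for ENO1, 0.415 and 0.416 for PKM, 0.647 and 0.649 for HSP90B1, 0.0585 and 0.0587 for P4HB, 0.859 and 0.862 for CD44, 0.125 and 0.126 for IER3, 0.0564 and 0.0568 for ZFP36L1, 0.291 and 0.293 for MYC, 0.0895 and 0.0896 for HSP90AA1, 0.52 and 0.521 for KRT8, 0.192 and 0.193 for KRT19, 0.45 and 0.461 for AGO2 and 0.232 and 0.38 for AGO4. CD44 and KRT8 had 0.0266 and 0.0187 with DESeq2 and with RLE factors, and 0.0163 and 0.00947 with no filter. Scaling counts by transcript length gave 0.105 for HSP90B1 and 0.321 for CD44. Without 1 library HSPA8 ran from -0.00915 to 0.208, with -0.0089 also among its values, and KRT8 from -0.116 to 0.0379. ANKRD36C had an intron value of -0.516 with 1 TPM added.

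With the passage as a replicate block, 7686 genes were nuclear and 7394 cytoplasmic, the ratio differed for 204 higher and 430 lower genes, which held all 31 of the calls without it, and the intron difference was called for 6 genes. The deviations of same-numbered libraries from their group means correlated between the fractions at 0.278, 0.0938 and 0.268 in the knockout and at 0.32, 0.309 and 0.652 in wild type, so not every pair was over 0.1 and the numbers were not taken to pair the libraries. Every knockout library correlated best with its own number, a hint from the data and not the design, and wild-type passages 27 and 28 did not.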
